A study of Mus musculus with 6 samples.

Results

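The genes described here are 43 mouse genes that encode adhesion proteins of the synapse, the machinery that releases synaptic vesicles, and scaffolds of the postsynaptic side. They were measured in mouse epiblast stem cells, a primed type of pluripotent cell taken from the embryo's epiblast, grown with or without Activin A. The 43 genes are part of 52609 annotated genes in the quantification. All 43 had reads in at least 1 of the 6 libraries. The list was chosen with earlier results of the same comparison in view: Doc2a and Slitrk3 had been among the largest falls in these libraries. Their changes are therefore given as values with a standard error, as a description, and they carry no p-value and support nothing further.

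Synapses are held together by pairs of adhesion proteins that bind across the cleft. Presynaptic neurexins and receptor phosphatases meet postsynaptic neuroligins, LRRTM proteins and SLITRK proteins, while NCAM1 and L1CAM are immunoglobulin-domain adhesion molecules of axons and of many embryonic cells. On the presynaptic side, SNARE proteins of the vesicle and of the plasma membrane zip together and fuse the membranes. Synaptotagmins and DOC2 proteins carry C2 domains that sense calcium or bind lipid, complexins hold the SNAREs, RAB3A and RIM proteins bring vesicles to the active zone, and synapsins and synaptophysin sit on the vesicles. PSD-95 (Dlg4) and SHANK proteins order the receptors on the postsynaptic side. Many of these genes are also transcribed outside neurons, where they serve secretion or cell contact.

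The 6 libraries of polyadenylated RNA, made with a stranded kit per the labels, fall into 2 groups of 3. Both groups were grown on inactivated mouse embryonic fibroblasts with serum replacement and received FGF2 at 10 ng/mL, the Wnt secretion inhibitor IWP2 at 5 µM, and SB431542, an inhibitor of the receptor kinases used by Activin, Nodal and TGF-beta ligands, at 2 µM. One group also received Activin A at 20 ng/mL, per its titles and labels, and the other did not. The text on treatment is the same for every library, and 1 library titled as lacking Activin A (replicate 1) nonetheless has Activin A in its growth factor label. The series' design text speaks of 2 lines with 3 replicates each, so a difference of line and the absence of Activin A cannot be told apart. The labels do not say whether replicates were separate cultures, and the p-values given for other genes then measure only the spread between these libraries, which may be technical.

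The libraries held 9946521 to 16350923 estimated reads, the lowest in the library with Activin A replicate 3. A gene's level in a library is given in CPM (estimated reads scaled to a library of 1000000 reads, after the TMM scaling of edgeR), or in TPM (scaled by transcript length) where genes are compared with each other. Of 10 epiblast markers fixed as a list, all were tested, 8 were called lower and 1 (Sox2) higher without Activin A, and their summed level was 1609 to 1666 CPM with Activin A and 822 to 839 CPM without. By its title, the series asks how Activin A bears on the ectoderm fate of these cells. In bulk RNA, fewer cells of a type and less RNA per cell cannot be told apart.

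Without Activin A, the 43 genes moved in both directions. A gene was called lower or higher where the Benjamini-Hochberg adjusted p of the edgeR quasi-likelihood test was at most 0.05. In that test 36 of the 43 genes passed the filter on low counts, and 11 were called lower and 4 higher. Among all 15448 genes tested, 15.2% were called lower and 14.0% higher, against 30.6% and 11.1% of the 36. Since the list was chosen on this contrast, nothing is read from that difference. The CPM ranges of the groups did not overlap in 13 genes that were lower and 5 that were higher without Activin A, beside 21.6% and 21.3% of all genes tested. The median log2 fold change (without minus with Activin A) was -0.28 over the 36 genes and 0.00 over all genes tested. The change was under 1.5-fold in 8 of the 15 called genes, and 4 of the 36 genes (11.1%) were called and changed by 2-fold or more: Doc2a, Slitrk3, Slitrk2 and Doc2b. Of all genes tested, 4.85% were called with a change of that size. For 4 genes (Nrxn3, Lrrtm1, Doc2b and Syt4), the libraries that held enough reads for the filter lay chiefly in the group with Activin A, so the filter itself favoured a difference in that direction.

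**Figure D1:**
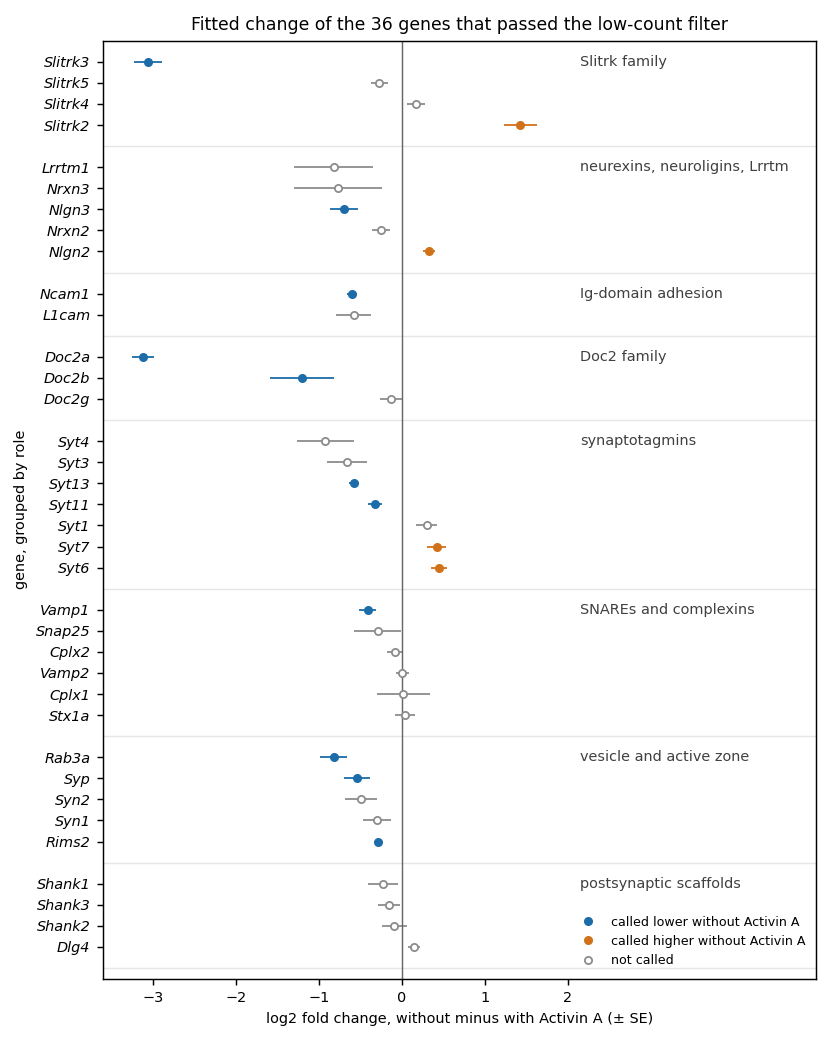
Log2 fold change without minus with Activin A (x axis) of each of the 36 genes that passed the low-count filter, grouped by role (y axis); points are the fitted values, bars 1 standard error, and filled points are called. Doc2a at -3.12 and Slitrk3 at -3.06 lie far to the left of the others, Slitrk2 at 1.43 lies farthest to the right, and the postsynaptic scaffolds lie near 0.

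The SLITRK genes, which encode leucine-rich repeat transmembrane proteins that bind presynaptic receptor phosphatases, went apart. Slitrk3, known for organising inhibitory synapses, fell, Slitrk2 rose, Slitrk4 and Slitrk5 were not called, and Slitrk1 and Slitrk6 had too few reads to test. Slitrk3 (ENSMUSG00000048304.8, chr3:73047265-73057803, minus strand, GRCm38) stood at 12.7, 11.1 and 11.1 CPM with Activin A and at 0.992, 1.41 and 1.79 CPM without. The groups were far apart, and the lower group rested on 14, 21 and 24 estimated reads. The fitted change was -3.06 ± 0.17 (SE) on the log2 scale, which is 8.32-fold lower, and it lay between -3.26 and -2.86 when each library was left out in turn. Both annotated Slitrk3 transcripts are protein-coding. The division of the few reads left without Activin A between them varied from library to library, with 38.3% to 100% assigned to Slitrk3-201, so the fall is given for the gene as a whole.

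Slitrk2 (ENSMUSG00000036790.5, chrX:66649318-66661393, plus strand) moved the other way. It stood at 1.47, 1.32 and 2 CPM with Activin A and at 3.83, 4.65 and 4.11 CPM without, with no overlap. The change was 1.43 ± 0.20 (SE), which is 2.69-fold higher, from 18 to 69 reads per library. Each of its 2 coding transcripts was higher without Activin A in every library than in any library with it.

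Slitrk4 stood at 9.9, 9.66 and 11.4 CPM with Activin A and at 13.2, 10.6 and 10.8 CPM without. The ranges overlapped, and the change of 0.17 ± 0.11 (SE) was not called. Slitrk5 stood at 9.72, 11.1 and 10.7 CPM with Activin A and at 8.57, 8.62 and 8.82 CPM without. Its groups did not overlap, but the difference was small (-0.27 ± 0.10, SE) and was called only under upper-quartile scaling. Per length, Slitrk3 averaged 2.01 ± 0.171 TPM with Activin A, between Slitrk4 (2.87 ± 0.127) and Slitrk5 (1.6 ± 0.24), and 0.251 ± 0.0758 TPM without it, below Slitrk2 (0.773 ± 0.0736; all SD, n = 3). Reads of one SLITRK gene are hard to mistake for another: of the 31-base words in each Slitrk gene's transcripts, fewer than 1% (at most 0.78%, in Slitrk4) occur in transcripts of any other gene.

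The promoter windows of the SLITRK genes that moved are printed here because the pair changed in opposite directions. They come from RefSeq on GRCm38.p6 and run from 250 bases before to 50 bases after an annotated start. Slitrk2 has 2 starts in that table, at chrX:66649068-66649367 and chrX:66652909-66653208 (plus strand), and Slitrk3 has 1, at chr3:73057017-73057316 (minus strand), which lies inside the gene as GENCODE draws it. Capitals mark the letters CAGAC, a short sequence that SMAD proteins can bind, on either strand.
Slitrk2 first start: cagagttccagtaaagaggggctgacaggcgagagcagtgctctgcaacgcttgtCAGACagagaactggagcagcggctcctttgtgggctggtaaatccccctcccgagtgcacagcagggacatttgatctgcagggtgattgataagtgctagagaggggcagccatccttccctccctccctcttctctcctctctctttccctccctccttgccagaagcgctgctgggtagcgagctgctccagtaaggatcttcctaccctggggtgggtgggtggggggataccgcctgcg
Slitrk2 second start: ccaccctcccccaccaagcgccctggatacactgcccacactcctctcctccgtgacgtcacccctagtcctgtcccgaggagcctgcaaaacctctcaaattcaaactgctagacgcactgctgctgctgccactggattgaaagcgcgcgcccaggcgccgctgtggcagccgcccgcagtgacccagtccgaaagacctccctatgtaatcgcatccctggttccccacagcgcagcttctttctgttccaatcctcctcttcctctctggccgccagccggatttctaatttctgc
Slitrk3: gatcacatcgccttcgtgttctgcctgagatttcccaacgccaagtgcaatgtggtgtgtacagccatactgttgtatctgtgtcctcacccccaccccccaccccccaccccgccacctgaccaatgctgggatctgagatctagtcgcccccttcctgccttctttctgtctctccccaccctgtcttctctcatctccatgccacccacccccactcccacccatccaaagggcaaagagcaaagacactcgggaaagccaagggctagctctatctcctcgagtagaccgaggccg
The letters CAGAC occur once in the first Slitrk2 window and in neither of the other windows. They are common: 49.6% of all 32851 promoter windows in the table hold them.

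The DOC2 genes encode soluble proteins with paired C2 domains that promote spontaneous and asynchronous vesicle release in neurons. Doc2a fell by about as much as Slitrk3, Doc2b was lower at a very low level, and Doc2g was not called. Doc2a (ENSMUSG00000052301.14, chr7:126847416-126852705, plus strand) stood at 23.2, 24.6 and 19.1 CPM with Activin A and at 2.62, 2.63 and 2.47 CPM without. Every library without Activin A was far below every library with it. The change was -3.12 ± 0.13 (SE), 8.70-fold lower, and lay between -3.21 and -3.05 when each library was left out in turn.

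**Figure D2:**
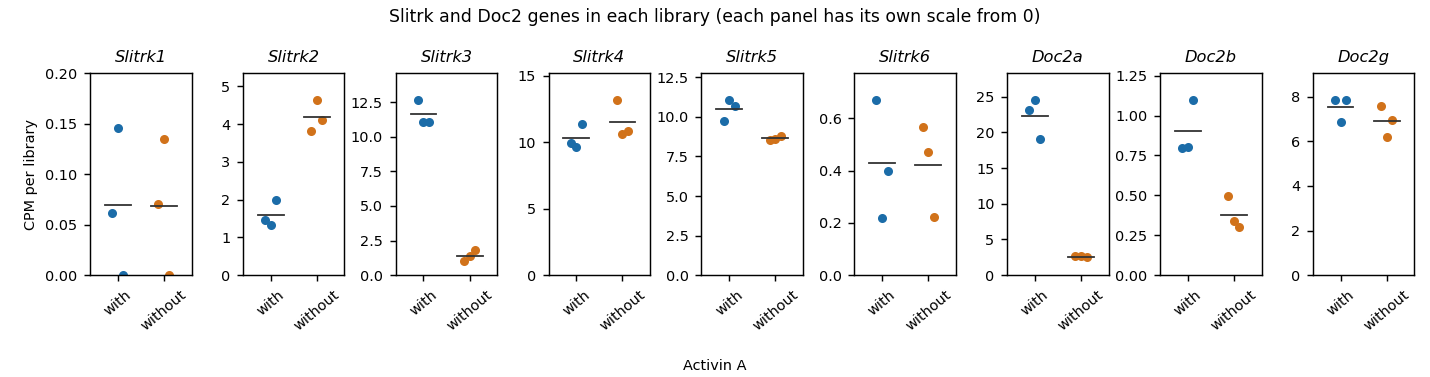
CPM (y axis, a separate scale from 0 in each panel) of the 6 SLITRK and 3 DOC2 genes in the 3 libraries with and the 3 without Activin A (x axis); points are libraries and lines group means. Slitrk3 and Doc2a drop without Activin A, Slitrk2 rises, and Slitrk4, Doc2g and the near-silent Slitrk1 and Slitrk6 have overlapping groups.

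The fall of Doc2a sat mainly in its main coding transcript. Doc2a-201 stood at 20.3, 18.9 and 15.6 CPM with Activin A and at 1.19, 0.975 and 0.847 CPM without, a ratio of means of 18.2. It held 82.3% ± 5.28 (SD, n = 3) of the gene's reads with Activin A and 38.9% ± 5.81 without. Doc2a-208, annotated as a target of nonsense-mediated decay, averaged 2.67 CPM with and 0.835 CPM without, a ratio of 3.2, and Doc2a-206, which is coding, did not differ beyond its spread (0.541 ± 0.484 and 0.467 ± 0.282 CPM, SD). The gene overlaps tail to tail with Ino80e, which encodes a chromatin remodelling subunit on the opposite strand: 43.5% of the bases of Doc2a-201 and 46.4% of those of Doc2a-208 lie in Ino80e exons. Whether the counting used strand is not given in the sources used here, and without strand the reads of that stretch cannot be told apart. Ino80e itself averaged 50 ± 7.45 CPM with Activin A and 57.5 ± 1.32 CPM without (SD, n = 3), a change of 0.19 ± 0.08 (SE), opposite in sign to that of Doc2a. Doc2a-209, a short coding transcript with 0 bases in Ino80e exons, averaged 0.526 CPM with Activin A and 0.0431 CPM without. Its groups did not overlap, but it had at most 9.68 estimated reads in any library. How the overlap bears on the reads left in Doc2a without Activin A was not tested.

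**Figure D3:**
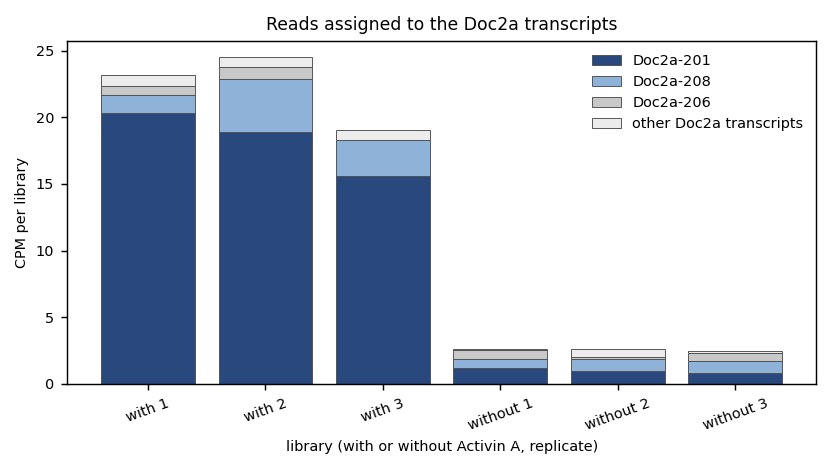
Estimated reads assigned to the Doc2a transcripts in each library, in CPM (y axis), stacked by transcript for the 6 libraries (x axis). Doc2a-201 makes up most of each bar with Activin A, at 15.6 to 20.3 CPM, and 0.847 to 1.19 CPM of each bar without.

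Doc2b had 13, 11 and 11 reads with Activin A and 7, 5 and 4 without, which is 0.795, 0.805 and 1.1 CPM against 0.496, 0.337 and 0.299 CPM. The groups did not overlap, and the change was -1.20 ± 0.39 (SE). That call held in 3 of 14 alternative analyses and was lost on leaving out any of 5 libraries, with values from -1.29 to -1.07 there. Doc2g, a family member without calcium binding, stood at 7.88, 6.88 and 7.88 CPM with Activin A and at 7.58, 6.2 and 6.95 CPM without, a change of -0.13 ± 0.13 (SE). Its ranges overlapped. Of the 31-base words of Doc2g, 58.9% also occur in other genes, chiefly Gm49405, which lies on the same strand, so reads of Doc2g could be split with it.

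Among the neurexins, neuroligins and LRRTM proteins, which pair across the synaptic cleft, Nlgn2 rose, Nlgn3 fell, and Nrxn2, Nrxn3 and Lrrtm1 were not called. Nlgn2, the neuroligin of inhibitory synapses, stood at 70.8, 67.8 and 58.2 CPM with Activin A and at 82.5, 83.5 and 83 CPM without. The libraries without Activin A were all higher, by 0.33 ± 0.07 (SE) on the log2 scale, a 1.26-fold difference. The rise lay mostly in 1 of its coding transcripts: Nlgn2-202 averaged 15.6 against 28.1 CPM, while Nlgn2-201 (48.3 and 52.5 CPM) had overlapping groups. Nlgn3 averaged 5.9 ± 0.527 CPM with Activin A and 3.63 ± 0.811 CPM without (SD, n = 3), a change of -0.70 ± 0.17 (SE). Part of Nlgn3 cannot be told apart from other genes, which hold 41.9% of its 31-base words. Chief among them is Gm21986, which lies on the same strand and was itself lower (-1.69 ± 0.24, SE). The Nlgn3 call was lost on both scales that correct for transcript length, at -0.32 and -0.72. Nrxn2, a presynaptic neurexin, stood at 17 ± 2.59 and 14.4 ± 0.719 CPM (SD, n = 3), a change of -0.25 ± 0.11 (SE) that was called only in the analyses lacking the shallowest library, with Activin A replicate 3 (-0.36, and -0.32 where without Activin A replicate 1 was dropped as well). Nrxn3 (-0.77 ± 0.53, SE) and Lrrtm1 (-0.82 ± 0.48, SE) had 18 reads or fewer in every library and wide errors. Lrrtm1 stood at 0.55, 1.1 and 1.1 CPM with Activin A and at 0.142, 0.741 and 0.598 CPM without, and its ranges overlapped.

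In CPM, the immunoglobulin-domain adhesion genes were both lower in value. Ncam1 stood at 76.1, 75.7 and 71.6 CPM with Activin A and at 48.5, 51.3 and 47.8 CPM without. The groups were well separated, and Ncam1 fell by 0.60 ± 0.06 (SE) on the log2 scale, 1.52-fold. Per length the fall was not seen: Ncam1 stood at 9.94, 16.4 and 9.43 TPM with Activin A and at 14.2, 14.3 and 6.08 TPM without, which overlap, and the change on log2(TPM + 1) was -0.09 ± 0.34 (SE). Its reads are spread over 7 transcripts of unequal length, and TPM depends on that split. L1cam averaged 3.96 ± 0.969 and 2.65 ± 0.41 CPM (SD, n = 3), a change of -0.58 ± 0.21 (SE) that was not called. It was called in 5 of 15 alternatives, among them that without the library with Activin A replicate 2 (-0.78). Over the alternatives its value ran from -0.78 to 0.10. Per length L1cam was not lower, at 1.32 ± 0.614 TPM with Activin A and 1.39 ± 0.162 TPM without (SD, n = 3).

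The 7 synaptotagmins, vesicle and membrane proteins with paired C2 domains, split evenly. Syt11 and Syt13, which do not bind calcium, fell, and Syt6 and Syt7, the latter a slow high-affinity calcium sensor, rose. Syt13 stood at 44.7, 44.7 and 42.1 CPM with Activin A and at 30.2, 30.3 and 28.3 CPM without, 1.48-fold lower (-0.57 ± 0.06, SE), with no overlap. Syt11 averaged 18 ± 0.35 and 14.4 ± 0.74 CPM (SD, n = 3), a change of -0.32 ± 0.08 (SE). Its call was lost when replicate 3 of the group without Activin A was dropped (-0.28), with DESeq2 (-0.32), on log2(TPM + 1) (-0.23) and with an offset for transcript length (-0.33). Syt7 stood at 15.5, 14.5 and 10.9 CPM with Activin A and at 18.3, 18.8 and 18.8 CPM without (0.42 ± 0.11, SE). Syt6, known from exocytosis of the sperm acrosome, stood at 7.94 ± 0.298 and 10.9 ± 0.606 CPM (SD, n = 3), a change of 0.45 ± 0.10 (SE) whose call was lost on both length-corrected scales (0.30 and 0.45). All 4 called synaptotagmins changed by less than 1.5-fold.

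Syt1, the fast calcium sensor of neuronal release, was not called (0.30 ± 0.13, SE), though its CPM did not overlap between the groups (4.89 to 5.49 with and 5.93 to 6.59 without). Syt3 was not called either (-0.66 ± 0.24, SE). It was called in 5 of 15 alternatives, among them that without the library with Activin A replicate 3 (-0.88). Syt4, which is low, stood at 1.53, 2.05 and 2 CPM with Activin A and at 1.63, 0.674 and 0.598 CPM without. The library without Activin A replicate 1, whose growth factor label names Activin A, stood with the other group for this gene. For Doc2a and Slitrk3, given above, it stood with its own group. The same held for the epiblast markers Nanog (59.7 CPM, beside 63.3 and 55.6) and Pou5f1 (123 CPM, beside 122 and 119). With Activin A these stood at 227 to 249 and 350 to 405 CPM. The Syt4 change of -0.92 ± 0.34 (SE) was not called, and without that library it was -1.51 ± 0.34 (SE) and called.

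Most of the SNARE and complexin genes, the core of the fusion machinery, were not called. Vamp2, the main vesicle SNARE, stood at 20.5, 21.2 and 21.5 CPM with Activin A and at 22.1, 20.1 and 21.3 CPM without, a change of 0.01 ± 0.08 (SE). The ranges overlapped fully. The plasma membrane SNAREs Stx1a (0.04 ± 0.12, SE) and Snap25 (-0.29 ± 0.28, SE) and the complexins Cplx1 (0.02 ± 0.32, SE) and Cplx2 (-0.08 ± 0.10, SE) were not called under any setting. Snap25 (20 to 36 reads per library) and Cplx1 (14 to 34 reads) had wide errors. Their values lay between -0.55 and -0.08 and between -0.41 and 0.25 when each library was left out in turn. Whether these 2 genes stayed level therefore cannot be said. Vamp1, another vesicle SNARE, was the called gene of this group: it averaged 12.7 ± 1.04 CPM with Activin A and 9.53 ± 0.483 CPM without (SD, n = 3), a change of -0.41 ± 0.10 (SE). Most of its reads (81.1% with and 84.5% without) were assigned to Vamp1-204, a processed transcript with no annotated coding frame, so the change is chiefly of that transcript (10.3 against 8.07 CPM). The Vamp1 call was lost on both length-corrected scales (-0.29 and -0.47).

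Of the vesicle and active zone genes, Rab3a, Syp and Rims2 fell, Syn1 and Syn2 were not called, and Rims1 had too few reads. Rab3a, the vesicle GTPase, stood at 5.01, 5.63 and 4.49 CPM with Activin A and at 2.76, 3.23 and 2.62 CPM without. The groups did not overlap, and the change was -0.82 ± 0.16 (SE), 1.76-fold lower. Some exons of Rab3a overlap Mpv17l2 on the opposite strand, which was also lower (-0.43 ± 0.12, SE). Rims2, a RIM scaffold that ties RAB3A to calcium channels and to the active zone, stood at 70.2, 69 and 70 CPM with Activin A and at 58.5, 57.1 and 57.1 CPM without. Its replicates lay close together, and a small change of -0.28 ± 0.05 (SE), 1.21-fold lower, was called. On log2(TPM + 1) it was -0.49 ± 0.15 (SE) and not called. Syp (synaptophysin, an abundant vesicle membrane protein) stood at 8.31, 6.81 and 6.09 CPM with Activin A and at 4.11, 5.46 and 5.23 CPM without, a change of -0.54 ± 0.16 (SE). That call was lost without the library with Activin A replicate 1 (-0.39), without replicate 1 of the other group (-0.42) and with DESeq2 (-0.53). It was also lost on both length-corrected scales, where the change was -0.02 ± 0.13 (SE) on log2(TPM + 1) and -0.06 ± 0.19 (SE) with the offset. The synapsins, which tether vesicles, had values of -0.30 ± 0.17 (SE, Syn1) and -0.49 ± 0.19 (SE, Syn2). Each was called in 1 leave-one-out analysis, Syn1 on dropping replicate 3 of the group without Activin A (-0.52) and Syn2 on dropping replicate 3 of the group with it (-0.57). Syn2 was called under upper-quartile scaling as well (-0.52 ± 0.19, SE).

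None of the 4 postsynaptic scaffold genes was called. Dlg4, which encodes PSD-95, stood at 71.9, 78.2 and 65.4 CPM with Activin A and at 83, 77.4 and 79.4 CPM without, a change of 0.15 ± 0.07 (SE). The ranges overlapped, and the gene was called only without the library with Activin A replicate 2 (0.21). Shank1, Shank2 and Shank3, which link PSD-95 complexes to actin, changed by -0.23 ± 0.18, -0.09 ± 0.15 and -0.15 ± 0.13 (SE), with overlapping groups in each.

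Another 7 genes were near silent and could not be tested. Slitrk1 and Lrrtm2 had at most 3 reads in any library. Slitrk6 had 3 to 11 reads, Nlgn1 1 to 6, Lrrtm3 2 to 4, Lrrtm4 0 to 4, and Rims1 4 to 9. For comparison, 3 reads, the limit that a count of 0 allows, correspond to 0.184 to 0.302 CPM in these libraries; this covers counting error only. The near-silent genes include Lrrtm2, Lrrtm3 and Lrrtm4, while Lrrtm1, given above, was low but tested. They also include Nlgn1, the neuroligin of excitatory synapses, while Nlgn2, its relative at inhibitory synapses, was among the highest of the list. Lrrtm2 lies within Ctnna1 on the opposite strand, which stood at 360 CPM with Activin A and 399 CPM without.

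Per length, the levels of the 43 genes spanned from near 0 to 81.2 TPM. Dlg4 was highest, at 54.6 to 81.2 TPM, and its range lay above that of every other gene. Nlgn2 (14.7 to 23.9 TPM), Rims2 (9.43 to 17.6), Doc2a (1.75 to 24.8), Ncam1 (6.08 to 16.4) and Vamp2 (8.79 to 12.5) followed, each overlapping the next in its range. In CPM, which takes no account of length, Dlg4 (65.4 to 83) and Nlgn2 (58.2 to 83.5) overlapped. Some Dlg4 reads were assigned to short transcripts, among them Dlg4-205 (729 bases) and Dlg4-207 (301 bases), where each read adds more TPM. How far the lead of Dlg4 rests on them was not tested. With Activin A, Doc2a stood at 24.8, 24.7 and 21.6 TPM, above the Nlgn2 libraries of that group, and without it at 1.75, 5.19 and 3.02 TPM. The mean was at least 1 TPM in 24 genes, and 19 genes reached 1 TPM in every library. The neuronal SNAREs Stx1a and Snap25 averaged 2.89 and 0.744 TPM, against 10.3 TPM for Vamp2. Widely expressed plasma membrane SNAREs outside the list, which can also pair with VAMP2, stood higher: Stx4a averaged 36.7, Snap23 28.9 and Stx3 16.4 TPM.

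**Figure D4:**
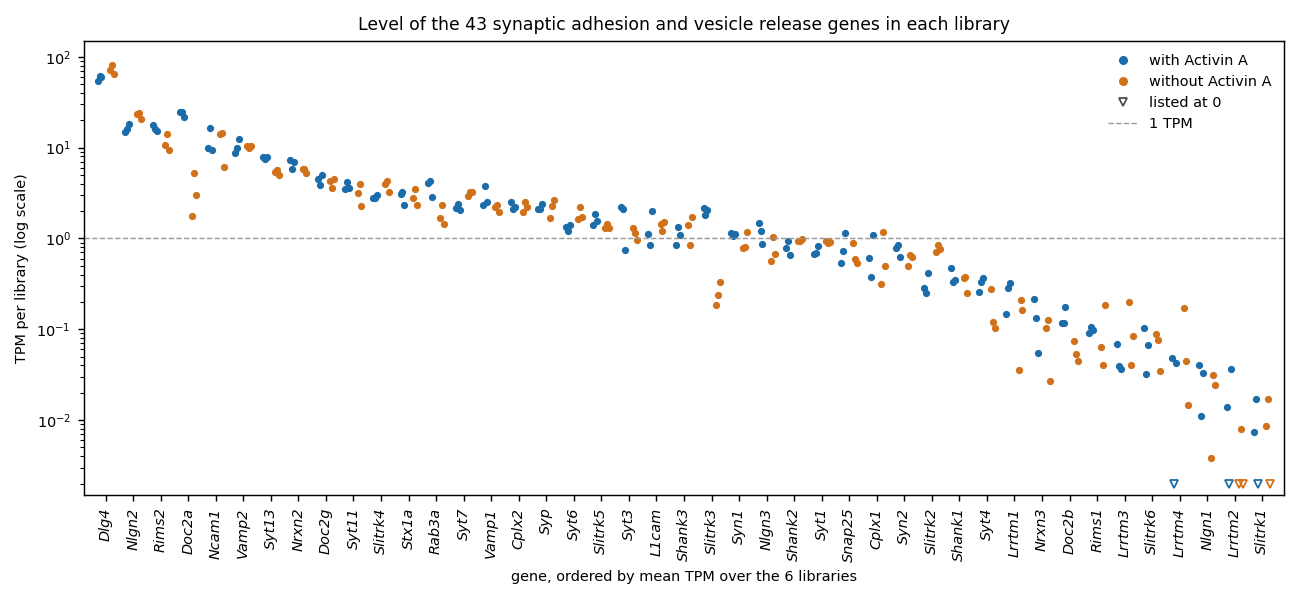
TPM in each library (y axis, log scale) of the 43 genes, ordered by their mean over the 6 libraries (x axis); blue points are libraries with and orange points without Activin A, open triangles mark values listed at 0, and the dashed line is 1 TPM. Dlg4 stands above all others at 54.6 to 81.2 TPM, and Doc2a and Slitrk3 are the genes whose colours are farthest apart.

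The split of reads over transcripts was uneven in its precision. Of the 36 genes, 32 have more than 1 annotated transcript, and in 30 of these the transcript with the most reads is protein-coding. The share of that transcript did not overlap between the groups in 9 genes (28.1%), beside 15.9% of the 12402 tested genes with more than 1 transcript. Among the 9 were Doc2a, Slitrk2 (79.9% with and 69% without), Nlgn2 (73.8% and 63.2%), Syp (82.1% and 68.3%) and Shank3 (52.7% and 77.8%). Snap25 (85% and 74.7%) and Stx1a (15.6% and 54.4%) were others. In Stx1a that transcript is Stx1a-204, annotated as a target of nonsense-mediated decay. The coding Stx1a-201 averaged 41.3% ± 22.1 with and 17.5% ± 17.5 without (SD, n = 3). In Shank3 the coding transcript Shank3-201 averaged 3.53 CPM with and 4.7 CPM without, with overlapping groups, while the processed transcript Shank3-202 averaged 2.85 CPM with and 0.812 CPM without, with no overlap. In 9 genes the share differed by more than 50 percentage points between libraries of 1 group (in L1cam from 3.3% to 89.4%), so for these the division of reads between like transcripts was not stable enough to be read. Syt6 and Syn1 are among both sets of 9, which leaves 7 genes with separate groups and a steadier share. Of all genes with more than 1 transcript, 8.38% differed by that much within a group.

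The promoter windows of the list were rich in CpG. Of the 43 genes, 28 were found in the RefSeq promoter table, with 41 windows. Their median GC content was 59.3% and their median number of CpG was 14, against 52.7% and 7 over all 32851 windows. The letters TTCAGCACC, the left arm of the RE1 element that the neuronal gene repressor REST binds, occurred on either strand in 2 of the 41 windows (4.88%), those of Nlgn1 and Syn1, and in 0.371% of all windows. The Syn1 window (chrX:20920869-20921168, minus strand) is printed because Syn1 is a well-known REST target, with that arm and the SMAD letters in capitals.
Syn1: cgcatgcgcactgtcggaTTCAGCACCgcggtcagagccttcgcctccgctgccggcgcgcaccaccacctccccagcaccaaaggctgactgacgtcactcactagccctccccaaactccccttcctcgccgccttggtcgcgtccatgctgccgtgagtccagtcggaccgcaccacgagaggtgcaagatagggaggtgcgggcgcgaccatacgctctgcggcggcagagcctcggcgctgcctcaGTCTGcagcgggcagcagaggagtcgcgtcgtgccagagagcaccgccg
The SMAD letters CAGAC occurred in 31.7% of the 41 windows and 49.6% of all, the SMAD palindrome GTCTAGAC in 0 and 0.213%, the FOXH1 letters TGTNNATT in 4.88% and 12.2%, and TATAAA in 2.44% and 13.6%. CAGAC and GTCTAGAC can overlap. These are matches of letters in short windows, chosen after the data had been seen, and say nothing of binding.

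REST itself was lower without Activin A. It averaged 110 ± 7.24 CPM with Activin A and 88.9 ± 1.17 CPM without (SD, n = 3), a change of -0.30 ± 0.06 (SE; edgeR adjusted p = 0.00117). Of the 10 genes listed for REST and its co-repressors, 2 were called lower, Rest and the deacetylase Hdac2 (-0.27 ± 0.06, SE; edgeR adjusted p = 0.00318), and the methyltransferase Ehmt2 was called higher (0.21 ± 0.07, SE; edgeR adjusted p = 0.025). The genes called lower and higher are 20% and 10% of this list, beside 15.2% and 14.0% of all genes tested, so the counts single out nothing. On log2(TPM + 1), Rest (-0.26 ± 0.10, SE) and Hdac2 (-0.33 ± 0.11, SE) were not called. The Ehmt2 call held in 8 of 15 alternatives and was lost without each of the 3 libraries without Activin A (0.19 to 0.23).

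Other genes of the same pathways, in 5 lists of 128 genes, were read from the same fit. One listed gene, Vamp7, matched no transcript in the files used here, and of the 127 others 101 were tested, and 27 were called lower and 17 higher, with a median log2 fold change of -0.06. These are 26.7% and 16.8% of those tested, beside 15.2% and 14.0% of all genes. Of the C2-domain sensors, 6 of 14 tested were lower and 1 higher. Esyt3, an extended synaptotagmin that tethers the endoplasmic reticulum to the plasma membrane, averaged 8.13 ± 1.31 and 2.55 ± 0.263 CPM (SD, n = 3), a change of -1.66 ± 0.17 (SE; edgeR adjusted p = 2.62e-06). Its value was smaller and not called with the length offset (-1.02 ± 0.30, SE) and on log2(TPM + 1) (-0.52 ± 0.17, SE). Syt9 (-1.12, edgeR adjusted p = 1.43e-06) and Syt17 (-1.07, edgeR adjusted p = 9.2e-05) were lower as well, and Esyt1 was higher (0.34, edgeR adjusted p = 0.000477). The other fusion genes changed little: 3 of 23 were lower and 4 higher, all by less than 1.5-fold. Among them were Snap47 at -0.30 and Stxbp6, a negative regulator of SNARE assembly, at 0.50 (edgeR adjusted p = 0.000412 and 0.000179).

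Among the other vesicle and active zone genes, 10 of 22 were lower and 4 higher. Rims4, a short RIM protein, fell (-1.19 ± 0.16, SE; edgeR adjusted p = 4.25e-05), and Rimbp2, the RIM-binding protein, was lower too (-0.80 ± 0.19, SE; edgeR adjusted p = 0.0053), as was the vesicle protein Syngr1 (-0.67, edgeR adjusted p = 0.00106). The active zone organisers Ppfia1 (0.47), Erc1 (0.28) and Pclo (0.58) were higher, with edgeR adjusted p of 2.22e-05, 0.000866 and 0.00124. On log2(TPM + 1) Pclo (0.09), Ppfia1 (0.37), Erc1 (0.29), Rimbp2 (-0.12) and Syngr1 (-0.47) were not called, and with the length offset neither were Pclo (0.26), Ppfia1 (0.33) and Rimbp2 (-0.49).

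The other adhesion genes held the largest rise: Cbln1, the secreted bridge between neurexins and glutamate delta receptors, averaged 8.64 ± 1.69 CPM with Activin A and 49.9 ± 2.72 CPM without (SD, n = 3), 5.67-fold higher (2.50 ± 0.10, SE; edgeR adjusted p = 2.63e-10). Flrt3, which bridges latrophilins and UNC5 receptors, was also higher (1.19, edgeR adjusted p = 9.35e-06). Nfasc (-1.09, edgeR adjusted p = 1.3e-08), Ntrk3 (-1.25, edgeR adjusted p = 4.2e-07) and Clstn3 (-0.51, edgeR adjusted p = 8.31e-05) were lower, but none of these calls held on the length-corrected scales. With the length offset Nfasc stood at -0.53, Ntrk3 at -0.07 and Clstn3 at -0.49, and on log2(TPM + 1) they stood at -0.45, 0.11 and -0.41. In all, 6 of 29 tested adhesion genes were lower and 5 higher. Of 13 other postsynaptic genes, 2 were lower, Dlgap3 (-1.23, edgeR adjusted p = 0.000194) and Homer2 (-0.70, edgeR adjusted p = 0.000302), and 3 were higher, among them Dlg1 (0.38) and Magi1 (0.20), with edgeR adjusted p of 0.000184 and 0.0187. Magi1 changed sign on the scales that correct for transcript length (-0.08 and -0.13), and Homer2 was called on neither (-0.55 and -0.72). Dlgap3 links PSD-95 to SHANK proteins, none of which was called.

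**Figure D5:**
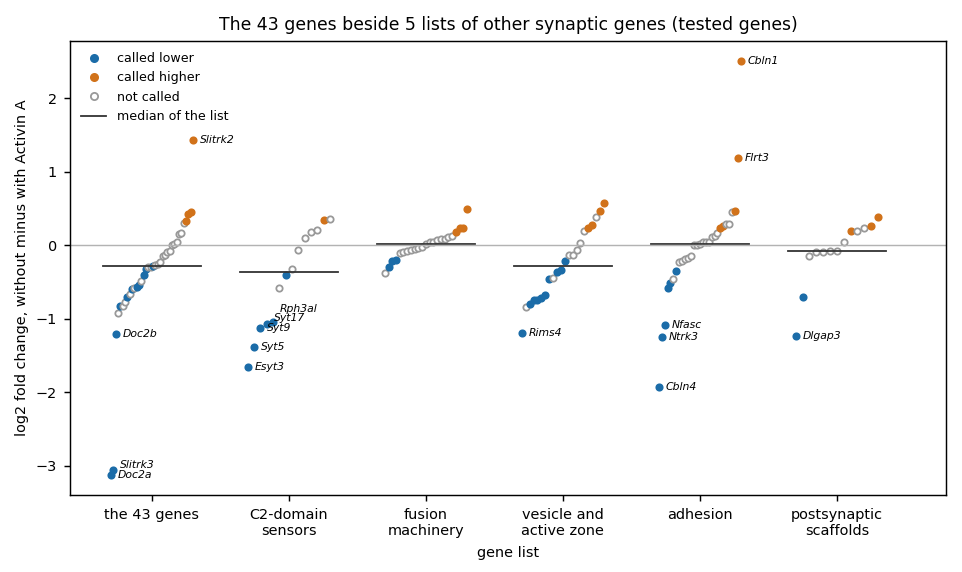
Log2 fold change without minus with Activin A (y axis) of each tested gene of the 43 and of 5 lists of other synaptic genes (x axis); filled points are called and lines are list medians. The fusion machinery lies within a narrow band around 0, the C2-domain sensors reach down to -1.66, and Cbln1 stands highest at 2.50.

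Markers of other cell types moved in the same comparison. Of 12 neuron markers, 11 were tested, 7 were lower and 0 higher without Activin A, and their summed level was 649 to 667 CPM with Activin A and 350 to 359 CPM without. Stmn2 made up most of that sum (426 and 235 CPM), Dcx was lower by a log2 fold change of -2.24, and Rbfox3, a marker of mature neurons, was under 1 CPM in every library. Of 7 glial and progenitor markers, 1 of 5 tested was lower, and Olig2 and S100b had at most 2 reads in any library. Of 20 fibroblast markers, which feeder cells express, 19 were tested, and 7 were lower and 6 higher. Their summed levels were 1907 to 2077 CPM with Activin A and 2478 to 2549 CPM without. Acta2 (168 and 407 CPM), Tagln (313 and 449 CPM) and Col1a1 (234 and 341 CPM) were among those higher. Col3a1 (46.2 and 19.9 CPM) and Thy1 (14 and 6.26 CPM) were among those lower, so the sum does not speak for the whole list. Of all genes tested, 15.2% were called lower and 14.0% higher. The part of these cell types in the changes of the 43 genes was not tested.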

How the data were processed

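Poly(A) RNA of 6 samples was quantified by the authors, and the deposited files hold the columns that salmon writes. Per the file headers, each gives an estimated count and a TPM value for each of 133618 transcripts. Besides salmon, DESeq2 and edgeR appear in the submitters' processing notes, with no versions. The build, the annotation and the strand setting are not given in any source used here. The estimated counts are deposited unnormalized, whereas TPM as deposited corrects for transcript length and for library total.

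Transcripts were matched to GENCODE M21 (GRCm38) with the version ignored. Of these, 133399 matched, and the 219 others, with 0.131% to 0.149% of the reads, were left out. Estimated counts were summed per gene and rounded. Genes were filtered with filterByExpr (minimum count 10, minimum total 15), scaled by TMM and tested, without against with Activin A, with the robust quasi-likelihood F test of edgeR 4.0.16 in R 4.3.3, with Benjamini-Hochberg adjustment over 15448 genes and a threshold of 0.05. The SE of a log2 fold change was taken as its size over the root of the F value. CPM and TPM are given per library and as mean ± SD. The procedure was tested on simulated data.

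The 43 genes and all gene lists were chosen with earlier results of these data known. Every tested gene of the 43 is named. Per-library values are given for the 6 largest changes, the 6 highest levels and the SLITRK and DOC2 families, and for some others chosen after their values were seen. Of other lists, up to 3 called genes in each direction with the smallest p and at least 1 CPM are named. The result of 1 such gene is left out here. Promoter windows are from RefSeq (GRCm38.p6). A planned comparison of protein sequences was not made.

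As alternatives, DESeq2 1.42.0 and limma-trend (limma 3.58.1, on TPM with a pseudocount of 1, log2 scale) replaced edgeR, and scaling was by RLE or by upper quartile. Others were testing without the filter, requiring 1 CPM in 3 libraries, an offset for transcript length, a block for the replicate number, and dropping each library. Leaving out 2 doubted libraries together (with Activin A replicate 3 and without replicate 1) was added after the data had been seen.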

Additional observations from a re-analysis of the deposited data

How the results depend on the processing

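Of the 15 called genes among the 43, 7 were called under all 15 alternatives (Slitrk2, Slitrk3, Nlgn2, Doc2a, Syt7, Syt13 and Rab3a), and 8 were lost in at least 1. Of the 21 not called, 13 were called in none. The scales that correct for transcript length changed the counts most. Over the whole table, 4505 genes were called, against 1559 with limma-trend on log2(TPM + 1) and 2050 with the transcript length offset. Of the 43, 11 were called lower, against 4 and 5 on these scales. Of the other synaptic genes, 27 were called lower, against 6 and 8, and 17 higher, against 4 and 7. The median log2 fold change of the tested genes among the 43 moved from -0.28 to -0.09 on log2(TPM + 1), a scale that understates changes of low genes. On it Slitrk3 stood at -1.27, Doc2a at -2.59 and Slitrk2 at 0.43. Of the named genes that had been called, Ntrk3 turned to 0.11 there, and Magi1 to -0.08 there and to -0.13 with the offset. The cause was not tested. When each library was left out in turn, 3246 to 5689 genes were called over the whole table, 9 to 13 of the 43 lower and 4 to 5 higher, and 17 to 31 of the other synaptic genes lower and 13 to 20 higher. Without both doubted libraries, 13 of the 43 were called lower and 4 higher. With upper-quartile scaling 15 of the 43 were called lower and with DESeq2 8, and 4 were higher under each. Genes under 20 reads per library (Doc2b, Nrxn3, Lrrtm1) are limited by depth. Replicate numbers are shared between the groups, but same-numbered libraries did not deviate together (correlations of -0.025, -0.052 and -0.057). The main test therefore assumed no pairing. These deviations were taken from means of 3 libraries over all genes tested, so the check cannot exclude a shared culture or batch. With the replicate block, 4422 genes were called over the whole table, and 12 of the 43 lower and 4 higher.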
